A study of Mus musculus with 10 samples.

Results

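Sca-1+ luminal cells of the mouse prostate were compared with Sca-1- luminal cells, gene by gene, in 6 of the 10 samples of the study. The samples were chosen by the cell type given in their labels: 3 carried the Sca-1+ luminal label and 3 the luminal label without Sca-1. The remaining samples, 2 of stromal and 2 of basal cells, served as further points of reference. Cells came from prostates of C57BL/6 mice of 8 to 12 weeks and were separated by flow cytometry with antibodies, after exclusion of lineage-positive cells (Lin-). Both luminal gates took cells high for CD24 and low for CD49f, and were divided by Sca-1, the surface protein encoded by Ly6a. Basal cells were low for CD24 and high for CD49f, and stromal cells were negative for both. No group carried a transgene or a treatment in the labels, and samples of a gate are numbered here in listing order. A culture protocol stood beside the sorting protocol for every sample, and the labels did not say whether sorted cells had been cultured, how many animals were pooled, or whether the samples of a gate came from separate animals. The p-values therefore measured only the spread between these samples.

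The mouse prostate is a branched gland in which luminal cells line the ducts and secrete seminal proteins under the control of androgens, while basal cells lie beneath them and stromal cells surround the ducts. Luminal cells of the ducts close to the urethra, the proximal luminal cells, are known for surface Sca-1, Psca and Krt4 and for low secretion, whereas distal luminal cells make abundant secretory proteins such as probasin (Pbsn). Sca-1 is also carried by many stromal fibroblasts, so a Sca-1 gate on its own does not separate epithelium from stroma.

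Expression was given in FPKM, fragments per kilobase of transcript and per M mapped fragments, summed over the transcripts of a gene. Differences are log2 changes of FPKM + 1, Sca-1+ luminal minus Sca-1- luminal unless another pair is named, with the standard error (SE) of the fit. This scale understates the changes of genes with low values. The threshold for a call was a limma Benjamini-Hochberg adjusted p below 0.05, over all 12459 genes tested, and "rose", "fell", "higher" and "lower" are used of called genes. Fewer cells of a type and less RNA per cell cannot be told apart in such bulk samples. Depth, read from the steps between low FPKM values, was 20.2 to 27.4 M fragments per sample, with 9820 to 11323 genes at 1 FPKM or more.

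The 5′ flanking sequences of 3 genes are shown because these genes were called in opposite directions: Krt7 and Wfdc2, which rose in Sca-1+ luminal samples, and Pbsn, which fell. Each is the 250 bases before the RefSeq start of the gene (GRCm38.p6, the assembly of mm10), read 5′ to 3′ on the strand of the gene. Of the 35 genes named by rule, 19 had a promoter in the RefSeq table. Krt7 and Wfdc2 were among the 35, whereas Pbsn was not and is shown as a marker given for the comparison. Capitals mark a GC box (GGGCGG or CCGCCC) or an androgen response half-site (AGAACA or TGTTCT).
Krt7, chr15:101412153-101412402, plus strand: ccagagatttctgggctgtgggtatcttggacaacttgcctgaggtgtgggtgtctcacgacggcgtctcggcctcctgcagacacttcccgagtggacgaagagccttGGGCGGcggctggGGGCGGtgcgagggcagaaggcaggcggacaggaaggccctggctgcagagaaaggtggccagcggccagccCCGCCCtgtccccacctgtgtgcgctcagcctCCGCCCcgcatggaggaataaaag
Wfdc2, chr2:164562465-164562714, plus strand: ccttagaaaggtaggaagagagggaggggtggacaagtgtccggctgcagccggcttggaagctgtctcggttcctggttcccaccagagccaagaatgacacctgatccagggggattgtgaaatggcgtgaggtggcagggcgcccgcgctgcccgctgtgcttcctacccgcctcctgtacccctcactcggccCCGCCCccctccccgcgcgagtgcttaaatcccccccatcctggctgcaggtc
Pbsn, chrX:77853501-77853750, minus strand: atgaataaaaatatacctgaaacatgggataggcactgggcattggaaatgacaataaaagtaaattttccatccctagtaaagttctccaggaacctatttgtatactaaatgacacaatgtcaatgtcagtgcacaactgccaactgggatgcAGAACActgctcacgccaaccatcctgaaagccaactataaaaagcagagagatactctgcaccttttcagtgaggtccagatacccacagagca
The Krt7 window held 4 GC boxes, with first bases 141, 128, 56 and 24 bases before the start. The Wfdc2 window held 1, at 53 bases. The Pbsn window held no GC box and 1 androgen response half-site, with its first base 95 bases before the start. No match to the AP-1 motif TGANTCA was found in these windows. Among 27025 promoter windows of this length, 32.9% held a GC box, 16.2% a half-site and 6.87% the AP-1 motif, on either strand.

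The sort marker followed the labels. Ly6a (chromosome 15, 74994877 to 74998031), the gene of the protein used in the sort, measured 677, 1116 and 2301 FPKM in Sca-1+ luminal samples against 54.3, 82.8 and 19.9 FPKM in Sca-1- luminal samples. All 3 Sca-1+ samples lay above all 3 Sca-1- samples, which the sort itself fixes. The stromal samples held 1290.2 and 1930.3 FPKM, more than Sca-1+ luminal samples 1 and 2 and less than sample 3. Epcam, an epithelial adhesion molecule, measured 299, 878 and 1064 FPKM in Sca-1+ luminal, 736, 1298 and 271 FPKM in Sca-1- luminal and 14.8 and 64 FPKM in stromal samples, and was not called between the luminal gates (log2 change 0.04, limma Benjamini-Hochberg adjusted p = 0.976). Cd24a, the gene of the other luminal gate marker, measured 197, 412 and 1091 FPKM in Sca-1+ luminal and 743, 838 and 529 FPKM in Sca-1- luminal samples, which overlapped.

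Fibroblast transcripts were present in the Sca-1+ luminal samples in unequal amounts. The FPKM of 20 fibroblast genes, such as collagens and decorin, summed to 7570.2, 4106 and 535 in Sca-1+ luminal samples 1, 2 and 3, against 155, 118 and 208 in the Sca-1- luminal samples and 10270.3 and 8419 in the stromal samples. Set against the mean stromal sum, the Sca-1+ luminal samples held 81%, 43.9% and 5.73%, and the Sca-1- luminal samples 1.66%, 1.26% and 2.23%. Sample 3 thus carried the least fibroblast signal of its gate, and sample 1 the most. Of the 20 genes, 19 were higher than in Sca-1- luminal samples (21.9% of all genes tested were), at a median log2 change of 4.33. Against stroma none of the 20 was higher and 2 were lower, beside 11.6% and 1.8% of genes tested. With sample 3 standing alone for the Sca-1+ luminal gate, 13 of the 20 were higher than in Sca-1- luminal samples, beside 10.3% of genes tested. Rises are therefore set against the stromal samples as well. The part of stromal RNA in the falls was not tested.

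**Figure D1:**
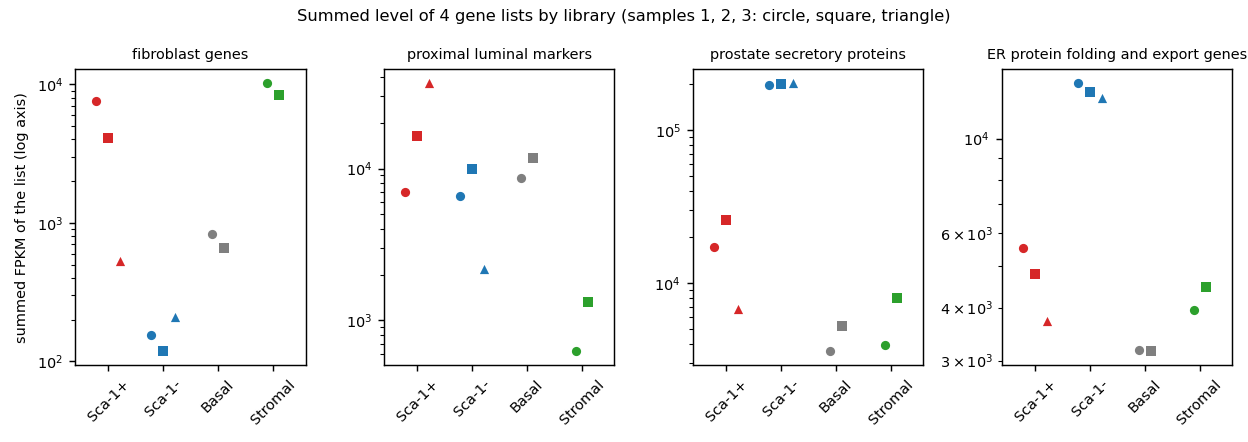
Summed FPKM (log axis) of 4 gene lists in each sample, with Sca-1+ luminal samples at the left and circles, squares and triangles for samples 1, 2 and 3. The fibroblast sum was 7570 in Sca-1+ luminal sample 1 and 535 in sample 3, while the secretory protein sum was 6809 to 26046 in Sca-1+ luminal samples and 198045 to 203715 in Sca-1- luminal samples.

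Between the luminal gates 2726 genes were higher in Sca-1+ luminal samples (21.9% of those tested) and 1666 were lower (13.4%). Of all called genes 62.1% were higher, a share that became 46.1% after median-of-ratios scaling and 40.4% after quantile normalization. The median log2 change over all genes tested was 0.19, and 0.02 and -0.07 under those 2 scalings. Without Sca-1+ luminal sample 2 the counts were 1708 higher and 1048 lower, and without Sca-1- luminal sample 3 they were 1716 and 999. Among the 2726, 295 (10.8%) were also higher than in stroma, 104 were lower than in stroma and 2327 were not called against it. In 290 of these 295 every Sca-1+ luminal sample lay above every Sca-1- luminal and stromal sample. Of the 1666 lower genes 380 were higher than in stroma, 5 were lower and 1281 were not called against it. In 1631 of the 1666 every Sca-1+ luminal sample lay below every Sca-1- luminal sample, and in 1645 sample 3 did. Lack of overlap was thus common among called genes. The 295 make 2.37% of the genes tested, with a median log2 change of 1.64. They were highest in sample 3 for 264 genes, in sample 2 for 27 and in sample 1 for 4, whereas the 104 genes below stroma were highest in sample 1 for 74, in sample 2 for 28 and in sample 3 for 2. Of the 295, 134 (1.08% of genes tested) were higher than in basal samples too, against which 15.4% of genes tested were higher, 24 were lower than in basal samples and 137 were not called against them. With sample 3 standing alone for its gate, 223 of the 295 were called higher than in Sca-1- luminal samples. The count rested on single samples: it was 69 without stromal sample 1, 125 without stromal sample 2, 166 without Sca-1+ luminal sample 2, 193 without Sca-1- luminal sample 1 and 480 without Sca-1+ luminal sample 1, and 44 genes were called in each of the 10 fits that left out 1 sample. The count of 134 was 40 without stromal sample 1, 60 without stromal sample 2, 50 and 52 without basal samples 1 and 2, 76 without Sca-1+ luminal sample 2, 89 without Sca-1- luminal sample 1 and 224 without Sca-1+ luminal sample 1.

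**Figure D2:**
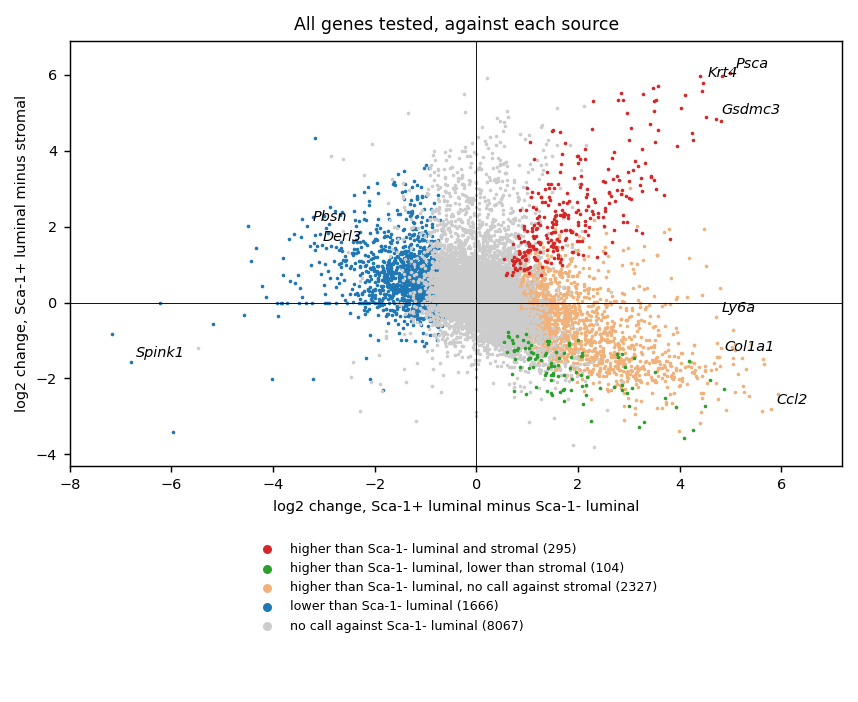
Log2 change of every gene tested, Sca-1+ luminal minus Sca-1- luminal (horizontal) and Sca-1+ luminal minus stromal (vertical), on the scale of log2(FPKM + 1). The 295 genes higher than both stand at the upper right with Psca and Krt4, while the collagen gene Col1a1 stands at the lower right, at 4.77 against Sca-1- luminal and -1.43 against stromal samples.

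Among the genes with the largest rise above both Sca-1- luminal and stromal samples were Psca, Krt7, Slc25a48, Gsdmc3, Gsdmc2, Krt4, Krt15, Clca1, Fxyd4, Wfdc2, Prss22, Tff3, Myof and Anxa3, with log2 changes of 3.69 to 5.00. By the rule that chose them, every Sca-1+ luminal sample lay above every Sca-1- luminal and stromal sample in each of these 14 genes. Psca (chromosome 15, 74714839 to 74717065), which encodes prostate stem cell antigen, a surface protein anchored by a lipid, measured 465, 1386 and 3356 FPKM in Sca-1+ luminal samples, 39.4, 64.4 and 24.2 FPKM in Sca-1- luminal samples, 7.86 and 40.9 FPKM in basal and 8.85 and 37.9 FPKM in stromal samples. It was higher by 5.00 than in Sca-1- luminal samples (SE 0.83, limma Benjamini-Hochberg adjusted p = 0.00255) and by 6.07 than in basal samples (limma Benjamini-Hochberg adjusted p = 0.0027). The highest sample outside the Sca-1+ luminal gate held 64.4 FPKM, far below the lowest sample inside it. Krt4 (chromosome 15, 101918535 to 101924735), a keratin of mucosal epithelia, measured 64.1, 92.1 and 379.9 FPKM in Sca-1+ luminal, 5.56, 2.77 and 8 FPKM in Sca-1- luminal, 2.3 and 2.52 FPKM in basal and 0.823 and 2.1 FPKM in stromal samples. Its rise was 4.45 (SE 0.60, limma Benjamini-Hochberg adjusted p = 0.00104), and it was 5.97 with sample 3 alone. Like Psca, Krt4 was higher than in each of the other gates.

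**Figure D3:**
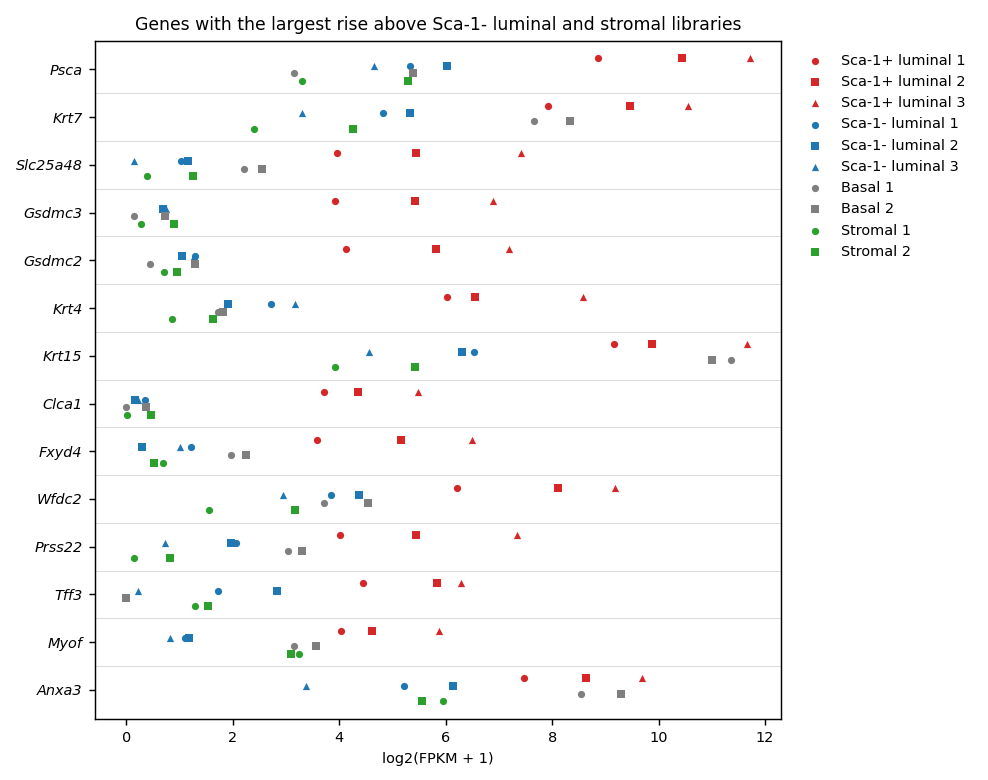
Level of 14 genes with the largest rises above Sca-1- luminal and stromal samples, in log2(FPKM + 1), 1 point per sample. In every row the 3 red Sca-1+ luminal points stand above the blue Sca-1- luminal and green stromal points, and for Krt15 the 2 grey basal points reach as high.

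Gsdmc2 and Gsdmc3, neighbouring genes of the gasdermin C family of pore-forming proteins, were near silent outside the Sca-1+ luminal gate. Gsdmc3 (chromosome 15, 63857725 to 63878558) measured 14.1, 42 and 118 FPKM in Sca-1+ luminal samples and 0.105 to 0.868 FPKM in the other 7 samples, and rose by 4.71 (SE 0.60, limma Benjamini-Hochberg adjusted p = 0.000862). Gsdmc2 measured 16.6, 55.1 and 144 FPKM in Sca-1+ luminal and 0.362 to 1.46 FPKM in the other samples. Their sequences are close, so fragments may be shared out between them, and the level of each is uncertain. Clca1, which encodes a secreted protein of mucous cells that modulates chloride currents, measured 12.1, 19.4 and 43.6 FPKM in Sca-1+ luminal and 0.372 FPKM or less in the other samples, with the smallest adjusted p of the 14 genes (log2 change 4.27, SE 0.39, limma Benjamini-Hochberg adjusted p = 0.000229). Tff3, a trefoil peptide of mucous secretions, measured 20.8, 56.3 and 77.3 FPKM in Sca-1+ luminal, 2.28, 6.09 and 0.159 FPKM in Sca-1- luminal and 1.45 and 1.89 FPKM in stromal samples, and was listed at 0 in both basal samples. Slc25a48, a mitochondrial carrier gene, measured 14.4, 42.3 and 169 FPKM in Sca-1+ luminal and 1.05, 1.24 and 0.0993 FPKM in Sca-1- luminal samples. Within the Sca-1+ luminal gate each of these genes was lowest in sample 1 and highest in sample 3, the reverse of the order of the fibroblast sums.

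Other rises did not set Sca-1+ luminal samples apart from basal samples. Krt7 measured 242, 708 and 1499 FPKM in Sca-1+ luminal, 27.3, 39.2 and 8.87 FPKM in Sca-1- luminal and 201 and 320.1 FPKM in basal samples, and was not called against basal samples (log2 difference 1.32, limma Benjamini-Hochberg adjusted p = 0.281). Krt15 measured 571, 935 and 3225 FPKM in Sca-1+ luminal, 91.9, 78.1 and 22.5 FPKM in Sca-1- luminal and 2633 and 2054 FPKM in basal samples. Anxa3, a calcium-dependent membrane-binding protein gene, measured 176, 395 and 824 FPKM in Sca-1+ luminal, 35.9, 68.9 and 9.32 FPKM in Sca-1- luminal and 374 and 625 FPKM in basal samples. For Krt7, Krt15, Anxa3 and the protease gene Prss22 the test against basal samples made no call, and the other 10 of the 14 genes were higher than in basal samples.

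Of 16 proximal luminal markers, a list chosen with earlier results of these data known, 11 rose and 1 fell, at a median log2 change of 2.90. Of all genes tested 21.9% rose and 13.4% fell. All 11 were higher than in stroma as well, beside 2.37% of genes tested that were higher than both. The counts of the list stayed at 11 or 12 higher and 1 lower with any sample left out. With sample 3 standing alone for its gate, the median log2 change was 4.33. Ppp1r1b (chromosome 11, 98348738 to 98357795), which encodes a regulator of protein phosphatase and kinase signalling, measured 68.3, 109 and 201 FPKM in Sca-1+ luminal, 8.95, 5 and 16 FPKM in Sca-1- luminal and 3.22 FPKM or less in basal and stromal samples. Clu, the secreted chaperone clusterin, measured 1384, 2516 and 8331 FPKM in Sca-1+ luminal and 520.2, 546 and 272 FPKM in Sca-1- luminal samples (log2 change 2.85, SE 0.67, limma Benjamini-Hochberg adjusted p = 0.0112). Cyp2f2, a cytochrome P450, measured 133, 245 and 669 FPKM in Sca-1+ luminal and 32.3, 19.2 and 35.9 FPKM in Sca-1- luminal samples. The groups did not overlap for these 3 genes. Pigr, the receptor that carries antibodies across epithelia, fell, at 46.9, 45.2 and 17 FPKM in Sca-1+ luminal and 115, 92.2 and 103 FPKM in Sca-1- luminal samples (log2 change -1.61, SE 0.37, limma Benjamini-Hochberg adjusted p = 0.0109). The markers without a call were Krt19, Lcn2, Nupr1 and Sprr1a. Sprr1a was abundant in both gates and spread widely, at 2106, 5125 and 11315 FPKM in Sca-1+ luminal and 2039.6, 2849 and 259 FPKM in Sca-1- luminal samples.

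Psca and Ly6a lie at the 2 ends of a stretch of chromosome 15 (74714839 to 74998031, mm10) that holds genes of the Ly6 family of small surface proteins. This stretch was looked at after its values were seen, and its ends were set by the gene with the largest rise and the gene of the sort. Of its 15 genes 9 were tested. Between Psca and Ly6a, Lypd2, Lynx1, Ly6d and Ly6k rose and Them6, Slurp1 and Ly6e were not called, which is a description with no test. Lypd2 measured 4.4, 11.3 and 52.3 FPKM in Sca-1+ luminal, 0.539, 0.139 and 0.283 FPKM in Sca-1- luminal, 0 and 0.617 FPKM in basal and 0.71 and 1.16 FPKM in stromal samples, and like Psca was highest in Sca-1+ luminal sample 3 (log2 change 3.54, SE 0.67, limma Benjamini-Hochberg adjusted p = 0.00456). Ly6d, which marks a castration-resistant luminal population in mice, measured 6.91, 17.6 and 55.9 FPKM in Sca-1+ luminal, 1.78, 2.69 and 0.774 FPKM in Sca-1- luminal and 76.5 and 44.9 FPKM in basal samples. Lynx1, Ly6k and Ly6a were not called against stroma. Ly6e was not called between the luminal gates, at 386, 648 and 951 FPKM in Sca-1+ luminal and 319, 343 and 401 FPKM in Sca-1- luminal samples (log2 change 0.81, limma Benjamini-Hochberg adjusted p = 0.125). Close sequence between Ly6 genes makes the level of each uncertain.

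Keratins form the intermediate filaments of epithelia. Of 8 keratins listed as luminal or simple 3 rose, beside 21.9% of all genes tested. They were Krt7, a keratin of simple epithelia, Krt4, a keratin of mucosal epithelia, and Krt80. Krt80 measured 9.14, 14 and 73.8 FPKM in Sca-1+ luminal and 1.61, 1.49 and 1.11 FPKM in Sca-1- luminal samples. Krt8 and Krt18, the general luminal pair, were not called, with Krt8 at 448, 1528 and 1533 FPKM in Sca-1+ luminal and 746, 2133 and 256 FPKM in Sca-1- luminal samples. Of 8 keratins of basal and stratified epithelia 4 rose (Krt15, Krt6a, Krt13 and Krt6b), beside the same 21.9%. Each of the 4 was also higher than in stroma, beside 2.37% of genes tested that were higher than both. Krt6a measured 21.4, 41.8 and 78 FPKM in Sca-1+ luminal, 4.49, 10.0 and 0.0419 FPKM in Sca-1- luminal and 51 and 42.2 FPKM in basal samples. Krt5, Krt14, Krt16 and Krt17 were not called between the luminal gates, and all 4 were lower than in basal samples. Krt5 measured 5.92, 20.0 and 7.46 FPKM in Sca-1+ luminal, 9.02, 14.4 and 2.29 FPKM in Sca-1- luminal and 382 and 535 FPKM in basal samples, which is -5.40 on the log2 scale for Sca-1+ luminal minus basal (limma Benjamini-Hochberg adjusted p = 0.00161, with 4.37% of genes tested lower than in basal samples).

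Of 15 basal cell markers 6 rose, beside 21.9% of all genes tested, and 9 were not called between the luminal gates. Against basal samples 12 were lower in Sca-1+ luminal samples, beside 4.37% of genes tested. Among the 6 that rose were Dkk3, a secreted Wnt modulator, the laminin chains Lamb3 and Lama3, the hemidesmosomal integrin Itgb4 and the laminin receptor Bcam. Without Sca-1- luminal sample 3 the count that rose was 3. Lama3 lost its call without any 1 of the Sca-1- luminal samples, without Sca-1+ luminal sample 2 or 3, and with quantile normalization. Trp63, the transcription factor that defines basal cells, measured 1.04, 1.14 and 0.509 FPKM in Sca-1+ luminal, 0.616, 0.0282 and 0.114 FPKM in Sca-1- luminal and 40.7 and 8.1 FPKM in basal samples, and was not called between the luminal gates (log2 change 0.61, limma Benjamini-Hochberg adjusted p = 0.328). Lamb3 measured 5.19, 7.06 and 5.56 FPKM in Sca-1+ luminal, 3.05, 1.89 and 1.09 FPKM in Sca-1- luminal and 128 and 106 FPKM in basal samples. The basal markers summed to 450.0, 599.7 and 573 FPKM in Sca-1+ luminal samples, 261, 303 and 130.3 FPKM in Sca-1- luminal samples and 5399 and 5529 FPKM in basal samples. The part of basal RNA in the rises of genes that basal cells also express was not tested.

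Genes of the squamous barrier, which toughen stratified epithelia, were higher in part: 7 of 19 rose and 12 were not called. Of all genes tested 21.9% rose. Of the 7, 5 were also above stroma, beside 2.37% of genes tested that were higher than both. Of these 5, 0 were higher than in basal samples too. Of the 19, 6 were lower than in basal samples, beside 4.37% of genes tested. Ppl, the plaque protein periplakin, measured 15.6, 17.6 and 60.8 FPKM in Sca-1+ luminal and 2.84, 3.6 and 1.76 FPKM in Sca-1- luminal samples (log2 change 2.87, SE 0.45, limma Benjamini-Hochberg adjusted p = 0.00211). Ivl, the cornified envelope protein involucrin, measured 9.9, 29.4 and 20.5 FPKM in Sca-1+ luminal, 3.85, 4.67 and 0.35 FPKM in Sca-1- luminal and 111 and 139 FPKM in basal samples. Sprr2a1, of a gene family with near copies, measured 80.2, 179 and 620.3 FPKM in Sca-1+ luminal and 26.8, 44.9 and 16.8 FPKM in Sca-1- luminal samples, and lost its call without Sca-1- luminal sample 3. The transglutaminase gene Tgm1, which crosslinks the envelope, was not called and was at most 4.53 FPKM in Sca-1+ luminal samples. Of 18 tight junction genes 2 rose (the junction adaptor Cgn and the polarity gene Pard6b), 1 fell (Cldn8) and 15 were not called, beside 21.9% of all genes tested that rose and 13.4% that fell. The count of higher genes was 0 without Sca-1+ luminal sample 2 and 1 without Sca-1- luminal sample 1 or 3. With sample 3 standing alone for its gate it was 4 of 17 tested, at a median log2 change of 0.94 against 0.15 with all samples, and Cldn8 was not called. Cldn8, a claudin that tightens the barrier to cations, measured 29, 24.3 and 29.1 FPKM in Sca-1+ luminal and 92.7, 51.8 and 139 FPKM in Sca-1- luminal samples.

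Genes of mucosal defence were higher in Sca-1+ luminal samples for 10 of 21 tested and lower for 2, beside 21.9% and 13.4% of all genes tested. Of the 10, 7 were higher than in stromal and in basal samples as well, beside 1.08% of genes tested. The summed level of the list went the other way, at 735, 1001 and 1064 FPKM in Sca-1+ luminal and 1308, 1294 and 1726 FPKM in Sca-1- luminal samples. Wfdc2, a secreted protease inhibitor of mucosal surfaces, measured 73.4, 274 and 579 FPKM in Sca-1+ luminal, 13.4, 19.8 and 6.74 FPKM in Sca-1- luminal, 12.2 and 22.2 FPKM in basal and 1.95 and 7.97 FPKM in stromal samples (log2 change 4.11, SE 0.72, limma Benjamini-Hochberg adjusted p = 0.00327). Wfdc18, a related gene, measured 8.23, 9.55 and 15.4 FPKM in Sca-1+ luminal samples and 0.361 FPKM or less in the other 7 samples. The iron-binding protein gene Ltf measured 2.61, 8.84 and 7.31 FPKM in Sca-1+ luminal and 0.551, 0.0826 and 0.459 FPKM in Sca-1- luminal samples. The chemokine gene Cxcl15 measured 6.19, 13.2 and 27.7 FPKM in Sca-1+ luminal and 1.12, 0.544 and 0.492 FPKM in Sca-1- luminal samples. The gates did not overlap for these 4 genes. The other members above stroma and basal cells were Cxcl17, the antibacterial lectin gene Reg3g and the membrane mucin gene Muc1, the last 2 at no more than 6.66 FPKM. C3 and Cfb of the complement system also rose, but were highest in sample 1: C3 measured 203, 25 and 9.7 FPKM in Sca-1+ luminal, 0.818, 0.128 and 1.86 FPKM in Sca-1- luminal and 489.6 and 166 FPKM in stromal samples. The 2 members that fell were Pigr and Defb1, a beta-defensin, at 74.3, 177 and 39.1 FPKM in Sca-1+ luminal and 984, 1073 and 1364 FPKM in Sca-1- luminal samples.

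Of 21 ion and water transport genes 9 were higher and 2 lower, beside 21.9% and 13.4% of all genes tested. The count of higher genes was 5 without Sca-1+ luminal sample 2, and the count of lower genes 4 with quantile normalization or without Sca-1+ luminal sample 3. Fxyd4, a regulator of the sodium pump, measured 10.9, 34.7 and 89.1 FPKM in Sca-1+ luminal, 1.32, 0.23 and 1.02 FPKM in Sca-1- luminal and 2.92 and 3.72 FPKM in basal samples. The potassium channel gene Kcnq1 and its partner subunit gene Kcne3 rose together. Kcnq1 measured 5.78, 10.7 and 29 FPKM in Sca-1+ luminal and 0, 0 and 2.63 FPKM in Sca-1- luminal samples, and was listed at 0 in the basal and stromal samples. Kcne3 measured 8, 11.2 and 42.2 FPKM in Sca-1+ luminal and 0.667, 0.571 and 0.835 FPKM in Sca-1- luminal samples (log2 change 3.32, SE 0.50, limma Benjamini-Hochberg adjusted p = 0.00169). Scnn1a, a subunit of the epithelial sodium channel, measured 7.34, 12.8 and 38.9 FPKM in Sca-1+ luminal and 1.59, 2.63 and 1.28 FPKM in Sca-1- luminal samples, and the chloride channel gene Ano1 measured 52.3, 53.3 and 116 FPKM in Sca-1+ luminal and 22, 20.0 and 22.3 FPKM in Sca-1- luminal samples. The luminal gates did not overlap for any of these 5 genes. Those that fell were Atp12a, a proton-potassium pump, at 4.99, 2.49 and 3.22 FPKM in Sca-1+ luminal and 24.1, 14.6 and 47.9 FPKM in Sca-1- luminal samples, and Slc26a4, an anion exchanger, at 4.23, 3.99 and 1.64 FPKM in Sca-1+ luminal and 23.4, 12.9 and 26.7 FPKM in Sca-1- luminal samples.

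Prostate secretory proteins fell for 11 of 17 tested, rose for 1 and were not called for 5, at a median log2 change of -2.68. Of all genes tested 13.4% fell and 21.9% rose. Without Sca-1- luminal sample 3 the count of lower genes was 7, and with sample 3 standing alone for its gate it was 9, beside 6.12% of genes tested that were lower in that fit. Pbsn (chromosome X, 77837898 to 77853500), the androgen-regulated secretory protein probasin, measured 1842, 4001 and 2578 FPKM in Sca-1+ luminal, 17563, 32807 and 33704 FPKM in Sca-1- luminal, 386 and 787 FPKM in basal and 349 and 1262 FPKM in stromal samples (log2 change -3.33, SE 0.63, limma Benjamini-Hochberg adjusted p = 0.00471). Each Sca-1+ luminal sample stood below each Sca-1- luminal sample and above each basal and stromal sample, and the call was lost with quantile normalization. The 10 most abundant transcripts took 11.2 to 14.3% of all FPKM in Sca-1+ luminal samples and 36.3 to 37.4% in Sca-1- luminal samples. Spink1, a trypsin inhibitor, was the most abundant of the list in Sca-1- luminal samples. It measured 7848, 13625 and 7.96 FPKM in Sca-1+ luminal and 128871, 122179 and 84219 FPKM in Sca-1- luminal samples (log2 change -6.80, SE 2.26, limma Benjamini-Hochberg adjusted p = 0.0419), a call that was lost when any 1 of 7 samples was left out: the 3 Sca-1- luminal, the 2 basal or the 2 stromal ones. Sbpl, a relative of the spermine-binding protein gene, measured 361, 474 and 0.664 FPKM in Sca-1+ luminal and 9345, 9101 and 10193 FPKM in Sca-1- luminal samples. Msmb, a seminal microprotein gene, measured 569, 1223 and 52.1 FPKM in Sca-1+ luminal and 6121, 7287 and 11109 FPKM in Sca-1- luminal samples.

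These transcripts did not fall evenly within the Sca-1+ luminal gate. Spink1, Sbpl, Msmb and the secreted inhibitor gene Wfdc3 were lowest in sample 3, at 7.96, 0.664, 52.1 and 1.63 FPKM, all below the basal and stromal samples. In samples 1 and 2 Spink1 and Sbpl stood above both stromal samples. Pbsn and the prostate transglutaminase gene Tgm4 were not lowest in sample 3: Tgm4 measured 1009, 787 and 903 FPKM in Sca-1+ luminal, 5498, 5032 and 6819 FPKM in Sca-1- luminal and 126 and 254 FPKM in stromal samples. Crisp1, a secreted protein of the male tract, was the 1 member that rose, at 30.6, 26 and 34.2 FPKM in Sca-1+ luminal and 14, 1.99 and 4.98 FPKM in Sca-1- luminal samples, and it was not called with sample 3 alone (log2 change 2.45, limma Benjamini-Hochberg adjusted p = 0.0586).

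The 15 genes with the largest fall by rule were Sbpl, Spink1, Smim27, Wfdc3, Msmb, 5430419D17Rik, Defb50, Emc9, Fbxo36, Ggnbp1, Defb1, 9530002B09Rik, Defa39, Ren1 and Crabp1. Defensin genes made 3 of them, with Defb50 at 1073, 3269.8 and 475 FPKM in Sca-1+ luminal and 15859.9, 20505 and 28689.8 FPKM in Sca-1- luminal samples, and Defa39 at 6.9, 12.9 and 1.1 FPKM in Sca-1+ luminal and 68.1, 70.0 and 94.4 FPKM in Sca-1- luminal samples. Near copies of defensin genes make these levels uncertain. Ren1, the gene of the protease renin, measured 77.7, 84.6 and 41.8 FPKM in Sca-1+ luminal, 584, 794 and 1059 FPKM in Sca-1- luminal, 16.9 and 15.2 FPKM in basal and 12.1 and 25.8 FPKM in stromal samples, and so stood between the Sca-1- luminal gate and the non-luminal gates (log2 change -3.58, SE 0.36, limma Benjamini-Hochberg adjusted p = 0.000355). Crabp1, which binds retinoic acid, measured 9.33, 8.91 and 0.271 FPKM in Sca-1+ luminal and 81.2, 64.3 and 35 FPKM in Sca-1- luminal samples. Smim27, Emc9, Fbxo36 and Ggnbp1 were listed at 0 in all Sca-1+ luminal, basal and stromal samples and at 10.8 to 89 FPKM in Sca-1- luminal samples. A listed 0 in these tables can be a failed estimate, so no fold is given for them. The call of 5430419D17Rik was lost without Sca-1- luminal sample 1 or 3, and that of Wfdc3 without Sca-1- luminal sample 3.

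**Figure D4:**
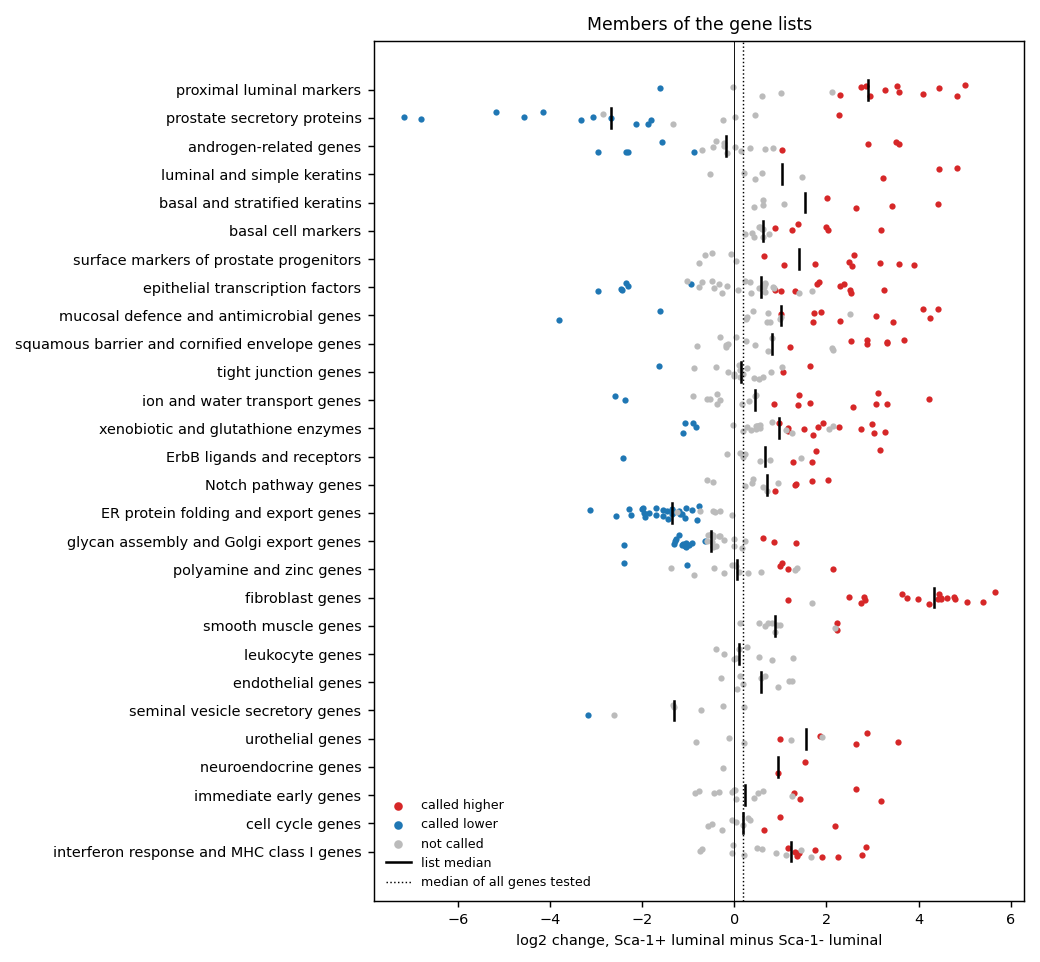
Log2 change, Sca-1+ luminal minus Sca-1- luminal, of each tested member of 28 gene lists. Red and blue points were called higher and lower, grey points were not called, bars are list medians and the dotted line is the median of all genes tested (0.19), with the fibroblast median at 4.33 and the secretory median at -2.68.

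Genes of the early secretory route fell as well. Among 33 genes that fold proteins in the endoplasmic reticulum (ER) or move them through it, 27 were lower and 6 were not called. The list median log2 change was -1.36, and 13.4% of all genes tested were lower. With any sample left out 25 to 29 of the list were lower, beside 999 to 1955 of all genes tested. The list count was 31 with median-of-ratios scaling, beside 2383 of the 12459 genes tested. It was 29 with quantile normalization, beside 2674 of them. With sample 3 standing alone for its gate, the list median was -1.62. Derl3 (chromosome 10, 75893398 to 75895941), which takes part in the disposal of misfolded proteins, had the largest fall of the list, at 14.9, 20.7 and 9.07 FPKM in Sca-1+ luminal and 107, 139 and 153 FPKM in Sca-1- luminal samples (log2 change -3.13, SE 0.35, limma Benjamini-Hochberg adjusted p = 0.000488). Its basal and stromal samples measured 6.41 FPKM or less. Creld2, a gene induced by ER stress, measured 92.5, 101 and 56.5 FPKM in Sca-1+ luminal and 396, 487 and 328 FPKM in Sca-1- luminal samples. Pdia6, an enzyme of disulfide bond formation, measured 327, 320.1 and 192 FPKM in Sca-1+ luminal and 995, 1004 and 1147 FPKM in Sca-1- luminal samples. Ssr4, of the translocon, measured 131, 201 and 194 FPKM in Sca-1+ luminal and 669.9, 944 and 888 FPKM in Sca-1- luminal samples. In each of these 4 genes all Sca-1+ luminal samples lay below all Sca-1- luminal samples. The list summed to 5524, 4803 and 3716 FPKM in Sca-1+ luminal, 13536, 12894 and 12432 FPKM in Sca-1- luminal, 3182 and 3153 FPKM in basal and 3946 and 4476 FPKM in stromal samples. The Sca-1+ luminal sums lay below every Sca-1- luminal sum, and those of samples 1 and 2 above every basal and stromal sum. Hspa5, Canx, Sec61a1, Ssr1, Sec62 and Sec63 were not called.

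Of 33 genes of glycan assembly, in the ER or the Golgi, and of Golgi export 14 were lower and 3 higher, beside 13.4% and 21.9% of all genes tested, at a median log2 change of -0.52, and 9 were lower with sample 3 alone. The subunits of the oligosaccharide transferase, which attaches glycans to new proteins, fell for Dad1, Ddost, Rpn1, Rpn2 and Ostc and were not called for Stt3a and Stt3b. The call of Rpn1 was lost in 6 of the 10 fits that left out 1 sample, and that of Dad1 without Sca-1+ luminal sample 2. With sample 3 alone Rpn1, Dad1 and Rpn2 were not called. Ostc measured 43.6, 51.6 and 55.5 FPKM in Sca-1+ luminal and 121, 119 and 127 FPKM in Sca-1- luminal samples. The cargo receptor gene Tmed3 had the largest fall, at 133, 139 and 96.9 FPKM in Sca-1+ luminal and 567, 619 and 768 FPKM in Sca-1- luminal samples (log2 change -2.40, SE 0.27, limma Benjamini-Hochberg adjusted p = 0.000525). Of the COPI coat genes Copa, Copb1, Copb2, Copg1 and Cope, 1 fell, Cope, whose call was lost without Sca-1+ luminal sample 1 or Sca-1- luminal sample 3 and with sample 3 alone. The members that rose were Golph3, Galnt3 and Galnt7, and their count was 0 without Sca-1- luminal sample 3, 0 with median-of-ratios scaling and 1 or 2 without any other sample. Of 18 polyamine and zinc genes 4 rose and 2 fell, counts near the 21.9% and 13.4% of all genes tested, and 1 or 2 rose when any 1 sample other than Sca-1+ luminal sample 3 was left out. The zinc exporter gene Slc30a2 fell, at 4.52, 2.9 and 2.55 FPKM in Sca-1+ luminal and 20.4, 15.9 and 29.4 FPKM in Sca-1- luminal samples (log2 change -2.39, SE 0.32, limma Benjamini-Hochberg adjusted p = 0.000989). Sat1, the polyamine acetyltransferase gene, rose, at 1119, 722 and 504 FPKM in Sca-1+ luminal, 212, 156 and 143 FPKM in Sca-1- luminal and 1989 and 1868 FPKM in stromal samples.

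Among 38 epithelial transcription factors 10 rose and 6 fell, counts near the 21.9% and 13.4% of all genes tested, so they are described here gene by gene. Among those that fell were Creb3l4, Spdef, Bhlha15, Hoxb13 and Ehf. Spdef, an ETS factor of secretory epithelia, measured 4.77, 7.17 and 3.22 FPKM in Sca-1+ luminal and 30.0, 24.8 and 39.1 FPKM in Sca-1- luminal samples (log2 change -2.44, SE 0.28, limma Benjamini-Hochberg adjusted p = 0.000525). Bhlha15, also known as Mist1, a factor of professional secretory cells, measured 11.3, 5.48 and 4.1 FPKM in Sca-1+ luminal and 47.3, 19.2 and 54.3 FPKM in Sca-1- luminal samples, and the membrane-bound factor gene Creb3l4 at 4.31, 3.28 and 1.34 FPKM in Sca-1+ luminal and 23.8, 13.7 and 23.1 FPKM in Sca-1- luminal samples. Hoxb13, a homeobox gene of the prostate lineage, measured 46.7, 44 and 28.9 FPKM in Sca-1+ luminal, 207, 133 and 277 FPKM in Sca-1- luminal and 6.54 and 9.78 FPKM in stromal samples. Ehf lost its call without Sca-1+ luminal sample 1 or 2 and without Sca-1- luminal sample 1 or 3.

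**Figure D5:**
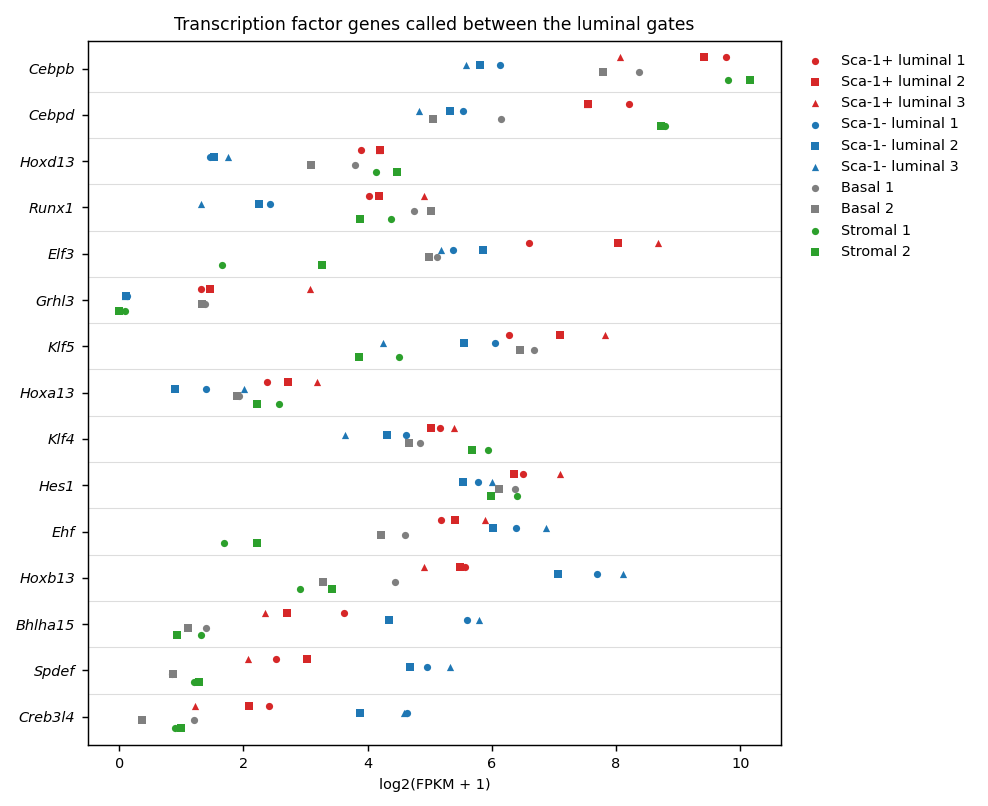
Level of 15 transcription factor genes called between the luminal gates, in log2(FPKM + 1), 1 point per sample, ordered by log2 change. Cebpb, Cebpd and Hoxd13 were not called between Sca-1+ luminal and stromal samples, while Elf3, Klf5 and Grhl3 stand above stroma.

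Of the transcription factors that rose, 3 were above stroma and 7 were not called against it. Elf3, an ETS factor of simple and mucosal epithelia, measured 96, 262 and 407 FPKM in Sca-1+ luminal, 40.6, 56.9 and 35.4 FPKM in Sca-1- luminal, 33.6 and 30.7 FPKM in basal and 2.15 and 8.63 FPKM in stromal samples, and was higher than in each of the other gates (log2 change from Sca-1- luminal 2.30, SE 0.54, limma Benjamini-Hochberg adjusted p = 0.0112). Klf5, a Krüppel-like factor of proliferating epithelia, measured 76.7, 137 and 225 FPKM in Sca-1+ luminal and 65.6, 45.9 and 18 FPKM in Sca-1- luminal samples, and lost its call without Sca-1+ luminal sample 2 or Sca-1- luminal sample 3. Grhl3, a grainyhead factor of barrier epithelia, measured 1.5, 1.76 and 7.43 FPKM in Sca-1+ luminal and 0.093, 0.0814 and 0.067 FPKM in Sca-1- luminal samples, with basal samples at 1.61 and 1.51 FPKM. Hoxd13, Hoxa13, Runx1, Cebpb, Cebpd, Klf4 and Hes1 were the 7. Of these, Runx1 was highest in sample 3, at 15.3, 17.2 and 29.1 FPKM in Sca-1+ luminal, 4.37, 3.76 and 1.48 FPKM in Sca-1- luminal and 19.8 and 13.7 FPKM in stromal samples, whereas Cebpb was highest in sample 1, at 868, 685 and 265 FPKM in Sca-1+ luminal, 68.8, 54.9 and 47.2 FPKM in Sca-1- luminal and 896 and 1135 FPKM in stromal samples. The factors Foxa1, Gata3, Grhl2 and Sox9, general to glandular or surface epithelium, were not called between the luminal gates.

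Of 20 androgen-related genes 5 fell, among them Bhlha15, Hoxb13, Cited2 and Fkbp5, and 4 rose (Pmepa1, Ndrg1, Steap4 and Homer2), at a median log2 change of -0.19. The shares of all genes tested were 13.4% lower and 21.9% higher. With sample 3 standing alone for its gate 4 were lower and 1 higher. Without Sca-1- luminal sample 3 the count of lower genes was 3, and without Sca-1+ luminal sample 2 the count of higher genes was 2. Fkbp5, a co-chaperone of steroid receptors, measured 28.1, 26.1 and 26.1 FPKM in Sca-1+ luminal and 60.9, 31.2 and 66.7 FPKM in Sca-1- luminal samples, and its call was lost when sample 1 or 2 of the Sca-1+ or sample 1 or 3 of the Sca-1- luminal samples was left out. Tmprss2, a surface protease under androgen control, was not called, at 28.8, 40.4 and 102 FPKM in Sca-1+ luminal and 62.8, 41.9 and 71.9 FPKM in Sca-1- luminal samples, which overlapped. Pmepa1, an inhibitor of androgen and TGF-beta signalling, had the largest rise, at 47.5, 52.3 and 39.3 FPKM in Sca-1+ luminal, 3.88, 4.09 and 1.47 FPKM in Sca-1- luminal and 64.1 and 109 FPKM in stromal samples. Of the 4 that rose, Homer2 was higher than in stroma.

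Ligands and receptors of the ErbB family, which carry growth signals in epithelia, gave 4 higher and 1 lower among 12, beside 21.9% and 13.4% of all genes tested. The ligand gene Areg measured 14.2, 30.7 and 141 FPKM in Sca-1+ luminal, 6.99, 5.89 and 0.771 FPKM in Sca-1- luminal and 53.8 and 46.1 FPKM in basal samples (log2 change 3.15, SE 0.81, limma Benjamini-Hochberg adjusted p = 0.016). The ligand gene Tgfa measured 9.44, 12.4 and 25.3 FPKM in Sca-1+ luminal, 5.22, 4.46 and 2.27 FPKM in Sca-1- luminal and 78.2 and 54.4 FPKM in basal samples. The ligand gene Egf fell, at 23.6, 15.4 and 11.9 FPKM in Sca-1+ luminal, 92.9, 76.3 and 106 FPKM in Sca-1- luminal and 1.93 and 1.7 FPKM in basal samples (log2 change -2.41, SE 0.26, limma Benjamini-Hochberg adjusted p = 0.000473). Each of these ligands had no overlap between the luminal gates. The ligand gene Hbegf and the receptor gene Egfr also rose, and Egfr was highest in sample 1, at 55.8, 43 and 24.6 FPKM in Sca-1+ luminal, 13.1, 14.9 and 6.34 FPKM in Sca-1- luminal and 89 and 68.6 FPKM in stromal samples. Without Sca-1- luminal sample 3 the count of higher members was 2, with Areg and Hbegf losing their calls. The call of Hbegf was lost in 8 of the 10 fits that left out 1 sample. Of 13 Notch pathway genes 5 rose (Maml2, Notch2, Heyl, Jag1 and Hes1), beside 21.9% of all genes tested. None of the 5 was above stroma. The count that rose was 2 or 3 when any 1 luminal sample other than Sca-1+ sample 3 was left out. With quantile normalization 3 rose and 2 fell.

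Enzymes of xenobiotic and glutathione metabolism rose for 12 of 31 and fell for 4, beside 21.9% and 13.4% of all genes tested. The glutathione transferase gene Gsta4 measured 80.4, 195 and 443 FPKM in Sca-1+ luminal, 25.3, 20.5 and 23.8 FPKM in Sca-1- luminal, 15.8 and 64.6 FPKM in basal and 6.9 and 11.3 FPKM in stromal samples (log2 change 2.99, SE 0.62, limma Benjamini-Hochberg adjusted p = 0.00656). Gsto1, another transferase, measured 338, 1313 and 1903 FPKM in Sca-1+ luminal, 129, 177 and 117 FPKM in Sca-1- luminal and 1004 and 1123 FPKM in basal samples. With Cyp2f2 and Gsta3 these made the 4 members above stroma. Those that fell were Gstm2, Cbr1, Gsta2 and Gss, with Gstm2 at 58.9, 62.7 and 64.3 FPKM in Sca-1+ luminal and 130.2, 119 and 157 FPKM in Sca-1- luminal samples. The count of lower members was 2 without Sca-1- luminal sample 1 or 3 or Sca-1+ luminal sample 2, and 1 with sample 3 alone. Transferase genes have near copies, so the split of fragments among them is uncertain.

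In 3 further lists no member that rose was above stroma. Of 20 interferon response and MHC class I genes 9 rose and 11 were not called, beside 21.9% of all genes tested that rose. The count was 6 to 14 with 1 sample left out, and 14 without Sca-1+ luminal sample 3. The list median was 1.24, and 0.61 with sample 3 standing alone for its gate. The summed level overlapped, at 3384, 3991 and 3489 FPKM in Sca-1+ luminal and 4419, 3897 and 5095 FPKM in Sca-1- luminal samples. Ifit3, an interferon-induced gene, measured 31.8, 49.5 and 10.0 FPKM in Sca-1+ luminal, 2.69, 3.66 and 1.81 FPKM in Sca-1- luminal and 29.1 and 89.4 FPKM in stromal samples. Of 16 immediate early genes 4 rose (Fosl1, Ier3, Dusp1 and Junb), near the 21.9% of all genes tested, and 12 were not called, among them Fos, Jun and Egr1. The count was 2 without Sca-1+ luminal sample 1 or 2, and 1 with sample 3 alone. Of 11 cell cycle genes 3 rose (Rrm2, Pcna and Mcm5), near that share too, and 0 of the 9 tested did by limma with sample 3 alone. Top2a was not called, at 0.792 to 1.39 FPKM in Sca-1+ luminal and 1.33 to 2.74 FPKM in Sca-1- luminal samples. The surface markers used for prostate progenitors rose for 9 of 14, beside 21.9% of all genes tested. Of the 9, 1 was above stroma, beside 2.37% of genes tested that were higher than both Sca-1- luminal and stromal samples. The list median was 1.41, and 0.87 with sample 3 standing alone for its gate. Without sample 3, 2 members fell. Cd44, an adhesion receptor, measured 85.5, 75 and 76.2 FPKM in Sca-1+ luminal, 9.34, 16.8 and 2.79 FPKM in Sca-1- luminal, 62.3 and 74.9 FPKM in basal and 144 and 124 FPKM in stromal samples. Prom1, also used as a progenitor marker, was not called (log2 change -0.48, limma Benjamini-Hochberg adjusted p = 0.182). The part of stromal RNA in these rises was not tested.

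Of 9 leukocyte genes 0 were called by limma, with 1 of the 9, higher in Sca-1+ luminal samples, at an unadjusted p under 0.05. The leukocyte list summed to 277, 432 and 291 FPKM in Sca-1+ luminal and 477, 160 and 528 FPKM in Sca-1- luminal samples. Basal samples held 45.2 and 75.9 FPKM of it and stromal samples 47 and 68.8 FPKM, less than every luminal sample. Ptprc, the common leukocyte antigen gene, was near the floor, at 0.191, 0.0197 and 0.129 FPKM in Sca-1+ luminal and 0.12, 0.338 and 0.0435 FPKM in Sca-1- luminal samples. Of 9 endothelial genes 0 were called by limma, with 0 at an unadjusted p under 0.05, and 5 were higher without Sca-1+ luminal sample 3. The endothelial list summed to 51.4, 41.1 and 8.58 FPKM in Sca-1+ luminal and 25, 17.8 and 17.6 FPKM in Sca-1- luminal samples. Its stromal sums, 25.2 and 25.4 FPKM, lay below those of Sca-1+ luminal samples 1 and 2. Of 11 smooth muscle genes 2 rose, beside 21.9% of all genes tested. Of the 11, 10 rose without Sca-1+ luminal sample 3, 0 without sample 2, and 1 without sample 1 or Sca-1- luminal sample 3. Their sum was 439, 613 and 50.7 FPKM in the Sca-1+ luminal and 98.8, 124 and 125 FPKM in the Sca-1- luminal samples. It was 566 and 961 FPKM in basal and 284 and 488 FPKM in stromal samples. Seminal vesicle secretory genes differed within the Sca-1- luminal gate, with sums of 7176, 4019.8 and 4475 FPKM in Sca-1+ luminal and 18898, 1401 and 42649 FPKM in Sca-1- luminal samples. Of 7 such genes 1 fell, beside 13.4% of all genes tested. All 7 fell without Sca-1- luminal sample 2, the sample with the smallest sum of its gate. The 1 call was lost without either basal or any other luminal sample except Sca-1+ sample 3. Of 10 urothelial genes 5 rose (Gprc5a, Sprr2a1, Krt13, Snx31 and Upk3a), beside 21.9% of all genes tested, and 4 of 7 tested did with sample 3 alone. The uroplakin genes Upk1a and Upk1b, which coat the bladder surface, were not called with all samples. Upk1a measured 61.2, 105 and 152 FPKM in Sca-1+ luminal and 192, 153 and 192 FPKM in Sca-1- luminal samples. Of 3 neuroendocrine genes Chga, a granule protein gene, was not called, at no more than 2.93 FPKM in any sample. The other 2, Calca and Eno2, rose, beside 21.9% of all genes tested. That count was 0 without Sca-1- luminal sample 1 or 3 or Sca-1+ luminal sample 2, with quantile normalization and with sample 3 alone, and 1 without any other basal or luminal sample except Sca-1+ sample 3.

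A fall below both Sca-1- luminal and stromal samples was called for 5 genes, 0.0401% of those tested: LTO1, Ccnk, Mt3, Il18 and Gnpnat1. LTO1 and Ccnk were listed at 0 in all Sca-1+ luminal samples, so no fold is given for them. Il18, the gene of the cytokine interleukin-18, measured 3.05, 1.52 and 1.41 FPKM in Sca-1+ luminal, 6.46, 7.05 and 7.9 FPKM in Sca-1- luminal and 4.53 and 5.03 FPKM in stromal samples (log2 change -1.48, SE 0.24, limma Benjamini-Hochberg adjusted p = 0.00242). Mt3, a metallothionein gene, measured 25.2, 32.2 and 11.4 FPKM in Sca-1+ luminal, 57.3, 89.3 and 91.4 FPKM in Sca-1- luminal and 55.5 and 209.7 FPKM in stromal samples. Gnpnat1, an enzyme of amino sugar synthesis, measured 14.2, 14.4 and 9.86 FPKM in Sca-1+ luminal, 24, 23 and 20.3 FPKM in Sca-1- luminal and 22.2 and 30.6 FPKM in stromal samples. Mt3 lost its call without Sca-1- luminal sample 2 or 3, and Gnpnat1 without Sca-1- luminal sample 1 or 2 or Sca-1+ luminal sample 3. The count of such genes was 19 without Sca-1+ luminal sample 3, 18 without Sca-1+ luminal sample 1, 2 without Sca-1- luminal sample 1, 3 without Sca-1- luminal sample 2 or 3 or stromal sample 1, and 1 without stromal sample 2.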

How the data were processed

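Total RNA of 10 sorted cell libraries was amplified with the NuGEN Ovation kit, built into libraries with Illumina TruSeq and sequenced on a HiSeq, per the labels' protocols. The deposited tables hold Cufflinks FPKM per transcript, per the file headers, and the authors' per-transcript coverage (a signal column), which was not used here. Bcl2fastq 1.8.3, TopHat, Cufflinks and the mm10 build are named in the submitters' processing notes. Strand was not given in the sources used here, so the levels of overlapping genes are uncertain. Close sequence makes those of near-identical genes (Ly6, Gsdmc, Sprr2, defensin, keratin 6, Sbp families) uncertain too.

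Transcripts were matched to genes by mm10 locus (54018 of 63241 had a symbol). Those under 300 nt (8006) were dropped, and FPKM was summed for 19402 genes. Depth was read from the steps between low values, of which 87.0 to 91.5% lay within 0.05 of a whole fragment. No 2 libraries held identical values.

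Genes at 1 FPKM or more in 2 libraries (12459) were tested with limma 3.58.1 (R 4.3.3) on log2(FPKM + 1), with a mean per gate over all 10 libraries, a mean-variance trend and Benjamini-Hochberg adjustment. The script was tested on simulated data. Named genes were the 15 largest rises above both Sca-1- luminal and stromal libraries, the 15 largest falls and up to 6 falls below both, without overlap between groups and leaving out 135 genes listed at 0 in some but not all libraries of a gate with another library at 5 FPKM or more. Members of 28 lists (494 genes, 445 tested) are reported by count and median, and 5 genes are not reported here. The members and lists were chosen with earlier results of these data known. Alternatives covered pseudocount, filter, scaling, libraries fitted, transcript summing and each library left out. Tables were handled with Python 3.11.15 and pandas 2.3.3, and figures drawn with matplotlib 3.10.9.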

Additional observations from a re-analysis of the deposited data

How the results depend on the processing

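No paired analysis was possible because the labels carry no replicate numbers: libraries were numbered in listing order within each gate. The 4392 called genes were 2011 with Sca-1+ luminal sample 3 as the only library of its gate and 2715 to 5214 when 1 library was left out. The 2726 higher genes were 1810 with quantile normalization, 1263 with sample 3 alone and 1708 to 3259 with 1 library left out, and the 1666 lower genes were 2674, 748 and 999 to 1955. The share of called genes that were higher, 62.1%, was 46.1% with median-of-ratios scaling, 40.4% with quantile normalization and 55.2 to 63.6% with 1 library left out. The 295 genes above both Sca-1- luminal and stromal libraries were 190 with median-of-ratios scaling, 162 with quantile normalization, 470 with sample 3 alone, 629 when every Sca-1+ library had to lie above every stromal library in place of the test, and 69 to 480 with 1 library left out. The 134 genes also above basal libraries were 73 with quantile normalization, 232 with sample 3 alone and 40 to 224 with 1 library left out. The 5 genes below both were 2 with no filter, 19 with median-of-ratios scaling, 30 with quantile normalization, 3 with the highest transcript per gene, 66 with sample 3 alone, 40 with the rule on every library and 1 to 19 with 1 library left out. The causes were not tested. The 211 list members called ranged over 162 to 243 with 1 library left out.

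Of 238 genes of the lists and the naming rule that were called, 147 were called under every alternative. Of their 4258 alternative values, 3816 kept direction and call, 442 kept direction and lost the call, and 0 changed direction. Of 1064 counts per list and alternative, 943 were within 1.5 times the reported count, 92 were lower and 29 higher. Fitting the compared gates alone was not run for the count above Sca-1- luminal, basal and stromal libraries, since all 4 gates enter it. A fit with 1 library in a gate assumes that this library varies like the others. FPKM near 1 rests on few fragments at these depths, and differences of such genes may not have been detectable.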
